A study of Mus musculus with 40 samples.

Results

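The transcriptomic response to 0.5 mg/kg body weight (bw)/d of GenX was described in the liver of female mice by comparing animals 351 to 354 with the control animals 151 to 155. These 9 livers, 4 treated and 5 control, were chosen by the animal numbers in the sample labels and belong to a series of 40 livers. All were wildtype Crl:CD1(ICR) mice, an outbred stock, dosed by oral gavage for 90 days, the treated females with GenX formulated in deionized water and the controls with deionized water. GenX is the trade name of the ammonium salt of a short perfluoroalkyl ether carboxylic acid, a replacement for long-chain perfluoroalkyl substances. RNA came from 1 section of formalin-fixed, paraffin-embedded liver per animal, scraped from the slide, so that a smaller number of cells of a type and less RNA per cell cannot be told apart. Expression was measured with TempO-Seq, in which pairs of short probes are joined on their target RNA, amplified and sequenced, and the values are reads per probe. Other groups of the series given beside the results are females at 0.1 and 5 mg/kg and males given 0 or 0.5 mg/kg, 5 animals each. The age of the animals was not given in the sources used here.

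Peroxisome proliferators are chemicals that bind the nuclear receptor PPARα, which pairs with RXR on DNA and raises the transcription of genes for the uptake, activation and oxidation of fatty acids. In rodent liver these genes include enzymes of β-oxidation in peroxisomes and mitochondria and the Cyp4a enzymes, which hydroxylate the far (omega) end of fatty acids. Mouse liver also differs between the sexes, with cytochromes P450 and sulfotransferases that are mostly male or mostly female under the control of growth hormone.

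Among 12412 genes tested on their most counted probe, 25 were called at an adjusted p below 0.10 (0.201% of the genes tested), 22 of them higher (0.177%) and 3 lower (0.0242%) in treated females. Among the genes that rose were enzymes of fatty acid ω- and β-oxidation, with *Cyp4a14* at 9.65-fold, *Cyp4a10* at 3.78-fold and *Ehhadh* at 3.30-fold of the control level. *Cyp4a12a* had reads in each treated female and no or 1 read in each control. *Crp*, *Cyp3a41b* and *Sult1e1* were the 3 that fell. The test was edgeR's quasi-likelihood test with Benjamini-Hochberg adjustment over 17877 probes, and it is the test behind each adjusted p given for a gene. Levels are normalized counts (CPM, reads of a probe per 1000000 reads of the library after TMM scaling), which are not corrected for the length or the binding of a probe and are compared here between animals, not between genes. Treated and control animals did not overlap for 19 of the 25 called genes, against 226 of all genes tested (1.82%), a description since the same values made the calls. For 15 called genes other probes were tested as well. Of these 22 probes, 8 were called and 19 had the same direction, against 13 of 5465 other probes called over all genes (0.238%). Probes that were not called are named below for some genes only.

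The libraries of the 9 females held 11378292 to 15338058 reads. A single captured molecule was estimated to give 24.04 to 49.8 reads, depending on the library, from the most frequent value among the low counts of its probes. By this estimate controls stood for 307766 to 521441 molecules and treated females for 327406 to 382265. The number of molecules sets the precision of the low genes. Genes of the Y chromosome (*Ddx3y*, *Uty*, *Kdm5d* and *Eif2s3y*) had no reads in the 19 females kept and 31.6 to 84.2 CPM in sum in the 20 males. The summed level of the hepatocyte markers (8 of 10 in the file) was 16090 to 18830 CPM in controls and 15320 to 18010 CPM in treated females. The library of treated animal 355 lay below the depth limit of 9680193 reads, the mean of the 40 libraries minus 2 SD, with 6711981 reads or 92099 molecules, and was left out. It stood apart from the animals of its own group. Of the 21 described genes that rose, it lay below the lowest control in 16, had no reads in 8 and lay above the highest control in 1, *Acot1*, and 30.4% of its reads fell on its 10 most counted probes, against 12.4% to 15.5% in the other treated females. With it in the fit, 8 genes were called, 6 of them among the 25.

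The Cyp4a genes lie side by side on chromosome 4 (GRCm38), and 5 of them rose, *Cyp4a12a* (115299046 to 115332815), *Cyp4a12b* (115411624 to 115439034), *Cyp4a14* (115486200 to 115496142), *Cyp4a10* (115518264 to 115533649) and *Cyp4a31* (115563649 to 115579015). *Cyp4a14*, an enzyme that peroxisome proliferators induce strongly in mouse liver, was at 6.12, 18.7, 86.8, 2.70 and 25.5 CPM in controls 151 to 155 and at 263, 240, 397 and 179 CPM in treated animals 351 to 354. All treated females lay above all controls, and the controls ranged from 2.70 to 86.8 CPM. The log2 fold change was 3.27 ± 0.64 SE (adjusted p = 0.00525). *Cyp4a10* was at 76.8, 139, 264, 77.9 and 207 CPM in controls and at 454, 695, 644 and 519 CPM in treated females. Again no value overlapped, and the log2 fold change was 1.92 ± 0.36 SE (adjusted p = 0.00333). A second probe of *Cyp4a10* was called as well, with a log2 fold change of 2.18 (adjusted p = 0.000114). *Cyp4a31* was at 24.2 to 73.7 CPM in controls and at 106, 145, 204 and 180 CPM in treated females (log2 fold change 1.62 ± 0.25 SE, adjusted p = 7.56e-05). Of its other probes, 1 had no reads in controls and a mean of 1.46 CPM in treated females, and 1 had 2.89 and 1.70 CPM, with neither called. The Cyp4a genes are close copies of each other, so reads of 1 member may include RNA of another.

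*Cyp4a12a* encodes an ω-hydroxylase that is typical of male mouse liver. Its probe had 1, 0, 0, 0 and 1 reads in controls 151 to 155 and 94, 133, 1015 and 199 reads in treated females 351 to 354. In captured molecules this was 0 in each control and 2, 4, 31 and 6 in treated females, so each treated animal lay above each control and animal 353 held most of the signal. The level was 20.9-fold higher in treated females, counted against a floor of 3 molecules over the 5 controls, and 7.78-fold without animal 353. In this bound and those below, the group that held molecules entered as counted, without its counting error. The adjusted p was 2.08e-13 on reads and 0.000876 on counts in molecules, and the gene was called with each animal left out in turn. Its other probe had no reads in controls and a mean of 0.876 CPM in treated females (adjusted p = 0.413). *Cyp4a12b*, its neighbour and close copy, had no reads in controls and 0, 34, 288 and 93 reads in treated females, or 0, 1, 9 and 3 molecules. The bound was 6.31-fold higher, or 2.59-fold without animal 353, and 1 treated animal was at the level of the controls. The adjusted p was 8.13e-07 on reads and 0.0966 on counts in molecules. Animal 355 had no reads on either gene.

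*Nat8f5*, an N-acetyltransferase gene on chromosome 6 (85817218 to 85820972) that overlaps *Nat8f6* on the same strand, was likewise highest in animal 353. It had no reads in controls and 36, 32, 323 and 54 reads in treated females, or 1, 1, 10 and 2 molecules. The bound was 6.80-fold higher, and 2.59-fold without animal 353. Its adjusted p was 0.000255 on reads and 0.0587 on counts in molecules. *Tdrp* had no reads in controls and 43, 60, 66 and 61 reads in treated females, or 1, 2, 2 and 2 molecules (bound of 3.40-fold higher, adjusted p = 0.0379). It was not among the genes called on counts in molecules. Each female at 0.1 mg/kg also had reads on this probe, at 2.33 to 9.77 CPM, against 2.84 to 5.43 CPM at 0.5 mg/kg. The other 2 probes of *Tdrp* were not called, with log2 fold changes of 2.51 and -1.05 (adjusted p = 1.0 for each), and its call was lost when control 152, 154 or 155 was left out (adjusted p of 0.108 to 0.113). In males *Cyp4a12a*, *Cyp4a12b* and *Nat8f5* had reads in each animal. *Cyp4a12a* was at 169 to 268 CPM in control males and *Nat8f5* at 14.45 to 40.2 CPM, against 6.21 to 83.5 CPM and 2.32 to 26.6 CPM in treated females.

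**Figure D1:**
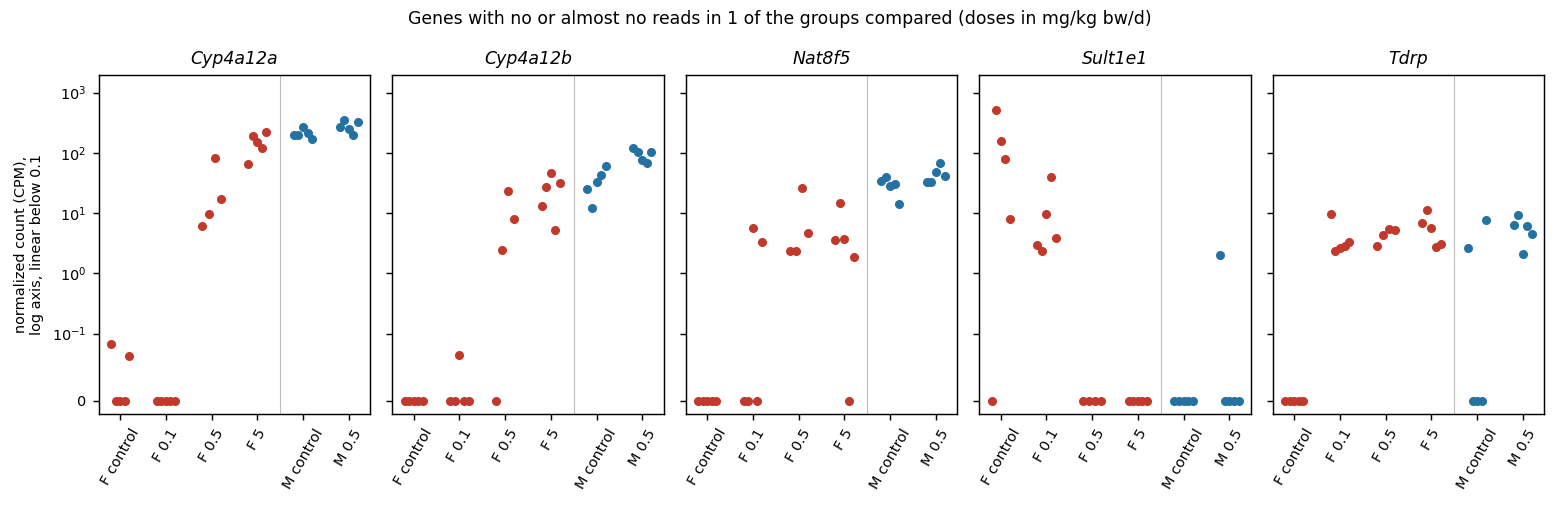
Normalized counts in CPM (log axis, linear below 0.1 CPM) of 5 genes with no or almost no reads in 1 of the 2 groups compared, 1 point per animal, for females (red) at 0, 0.1, 0.5 and 5 mg/kg and males (blue) at 0 and 0.5 mg/kg. Cyp4a12a is at 6.21 to 83.5 CPM in females at 0.5 mg/kg and at no more than 0.085 CPM in control females, while Sult1e1 is at 0 in the 4 treated females and between 0 and 515 CPM in the 5 controls.

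*Sult1e1*, the estrogen sulfotransferase, on chromosome 5 (87575969 to 87591594), had 0, 5996, 1888, 1003 and 119 reads in controls 151 to 155 and no reads in treated females 351 to 354. In molecules, the controls held 0, 213, 79, 38 and 2. The groups overlapped because control 151 had no reads, and the controls spread over the whole range down to the treated level. The bound was 76.0-fold lower in treated females, and 34.2-fold without control 152, with an adjusted p of 0.00168. The left-out treated animal 355 had 1455 reads on this probe, or 177 CPM, a level above 4 of the 5 controls. *Cyp3a41b*, a P450 enzyme that is mostly female, was at 1182, 743, 917, 1174 and 960 CPM in controls and at 646, 529, 427 and 495 CPM in treated females. It fell by 0.93 on the log2 scale (standard error 0.22, adjusted p = 0.0463) with no overlap, and its second probe fell by 1.37 (adjusted p = 0.0382). The call rested on several animals. Leaving out control 151 or 154 or treated animal 352, 353 or 354 gave adjusted p values of 0.130 to 0.351. *Cyp3a41a*, a near-identical copy, was not called (adjusted p = 0.114), with 2950, 2714, 2811, 3938 and 3867 CPM in controls and 1441, 1970, 395 and 812 CPM in treated females, where no value overlapped.

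The list of female-biased liver genes, mostly P450, flavin monooxygenase and sulfotransferase genes, held 1 called gene of 21 tested, *Sult1e1*, and did not include the called *Cyp3a41b*. Of the 21, 5 had a log2 fold change above 0. Its median log2 fold change was -1.18, against 0.00 over all genes tested, and -0.84 without animal 353. *Cyp3a16* was at 99.1, 417, 297, 568 and 245 CPM in controls and at 97.9, 19.3, 0 and 3.98 CPM in treated females (adjusted p = 0.485). *Cyp2c69* was at 64.9 to 135 CPM in controls and 6.58 to 35.95 CPM in treated females (adjusted p = 0.485). In *Cyp3a41a*, *Cyp3a16* and *Cyp2c69*, none of them called, animal 353 had the lowest value of the 9 females, and for *Cyp4a12a* and *Nat8f5* it had the highest. The list of male-biased liver genes held 1 called gene of 17, *Cyp4a12a*, and its median was 0.00. The nearest of the others were *Serpina1e* and *Selenbp2*, with an adjusted p of 0.485 each.

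Peroxisomal β-oxidation shortens very long and long fatty acids. *Ehhadh*, the bifunctional enzyme of its middle steps, was at 258, 172, 280, 274 and 282 CPM in controls and at 779, 889, 1062 and 615 CPM in treated females. The treated values lay well above the controls, with a log2 fold change of 1.72 ± 0.17 SE (adjusted p = 1.14e-09). *Acaa1a*, the thiolase of the last step, was at 406, 332, 673, 343 and 264 CPM in controls and at 711, 1038, 1226 and 581 CPM in treated females. Animal 354 lay below control 153, so the groups overlapped, and the log2 fold change was 1.139 ± 0.24 SE (adjusted p = 0.0144, or 0.235 without animal 353). These were the 2 called of 22 tested genes of the list, of which 20 had a log2 fold change above 0, with a median of 0.34 against 0.00 over all genes. With animal 355 in the fit it was 0.04 against -0.06 over all genes. *Decr2*, a peroxisomal reductase for unsaturated fatty acids, was at 75.9 ± 24.7 CPM (SD, n = 5) in controls and 145 ± 37.5 CPM (SD, n = 4) in treated females (adjusted p = 0.125). None of the 25 peroxins and peroxisomal membrane proteins was called. Their transporter *Abcd3* was nearest, at 35.2 ± 5.31 CPM (SD, n = 5) and 74.2 ± 31.3 CPM (SD, n = 4) with an adjusted p of 0.190.

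In mitochondrial β-oxidation 2 of 18 tested genes were called, and 16 had a log2 fold change above 0 (median of 0.32, and -0.01 with animal 355 in the fit). *Decr1*, the mitochondrial counterpart of *Decr2*, was at 180, 142, 201, 178 and 220 CPM in controls and at 323, 367, 382 and 229 CPM in treated females. Animal 354 lay just above the highest control, and the log2 fold change was 0.82 ± 0.15 SE (adjusted p = 0.00147). *Acadm*, the medium-chain acyl-CoA dehydrogenase, was at 492 to 931 CPM in controls and 1004 to 1197 CPM in treated females (log2 fold change 0.68 ± 0.14 SE, adjusted p = 0.0107, or 0.1 without animal 353), and a second probe was called with 0.74. *Hadhb*, a subunit of the trifunctional protein, was at 163 to 228 CPM in controls and 243 to 338 CPM in treated females and missed the threshold (adjusted p = 0.104). None of the 6 carnitine shuttle genes was called, and *Cpt1a*, the entry enzyme of that shuttle, was low, at 10.8 ± 9.31 CPM (SD, n = 5) in controls and 5.76 ± 2.82 CPM (SD, n = 4) in treated females.

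Of 21 genes for the uptake, binding and activation of fatty acids, 2 were called, and the median log2 fold change was 0.33, or 0.13 without animal 353. *Fabp1*, the fatty acid binding protein of hepatocytes and the most counted of the described genes, was at 3930, 2217, 3655, 3486 and 2924 CPM in controls and at 4698, 6108, 6814 and 4719 CPM in treated females. Each treated animal lay above each control, a log2 fold change of 0.78 ± 0.15 SE (adjusted p = 0.00428). *Acsl1*, which joins fatty acids to coenzyme A, was at 1199 to 1605 CPM in controls and at 2148, 1996, 2656 and 2300 CPM in treated females (log2 fold change 0.66 ± 0.12 SE, adjusted p = 0.00105). *Acot1*, a cytosolic thioesterase that splits that bond again, was at 23.98 to 79.8 CPM in controls and at 186, 121, 248 and 148 CPM in treated females (log2 fold change 1.56 ± 0.26 SE, adjusted p = 0.000452), and was the 1 called gene of 10 thioesterases. *Acot1* has near-identical neighbours, so its reads may include theirs. *Cd36*, a fatty acid receptor of the cell surface, was at 12.3, 1.97, 43.6, 43.3 and 11.4 CPM in controls and at 41.6, 104, 122 and 88.2 CPM in treated females, and was not called (adjusted p = 0.164).

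PPARα with RXR binds a direct repeat, here taken as 2 copies of AGGNCA with 1 base between them. This repeat was searched on both strands in the RefSeq promoters (GRCm38.p6) from 250 bases before to 50 bases after the transcription start. Of the 24 described genes, 16 had an entry, with 18 promoters. The promoter of *Fabp1* was the 1 with an exact match, and none of the other 17 promoters held the repeat with up to 1 mismatch. It is shown because it is the promoter of the most counted gene of the response and holds the repeat, in capitals, read on the opposite strand and starting 67 bases before the transcription start (chr6:71199629-71199928, plus strand).
Fabp1: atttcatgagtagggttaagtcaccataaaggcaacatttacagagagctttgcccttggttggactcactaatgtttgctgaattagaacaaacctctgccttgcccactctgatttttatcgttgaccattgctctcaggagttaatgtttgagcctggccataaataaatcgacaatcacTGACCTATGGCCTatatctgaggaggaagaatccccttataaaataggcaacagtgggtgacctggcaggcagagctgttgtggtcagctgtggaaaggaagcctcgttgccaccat
Of all 32851 promoters of 300 bases, 125 held an exact match (0.381%) and 1547 a match with up to 1 mismatch (4.71%). The match is a description of the sequence in this window.

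Several other called genes act on lipids, retinoids or lipid epoxides. *Retsat*, a retinol saturase on chromosome 6 (72598475 to 72608425), was at 89.8, 131, 173, 121 and 145 CPM in controls and at 319, 444, 725 and 531 CPM in treated females. The lowest treated value was well above the highest control, and the log2 fold change was 1.93 ± 0.18 SE (adjusted p = 1.01e-10). *Ephx2*, the soluble epoxide hydrolase, was at 633 to 779 CPM in controls and at 1114, 1186, 1508 and 1214 CPM in treated females (log2 fold change 0.83 ± 0.11 SE, adjusted p = 9.59e-07), and its second probe was called with 1.20. *Hsd17b11*, a dehydrogenase of lipid droplets, was at 144, 269, 190, 161 and 164 CPM in controls and at 350, 360, 413 and 262 CPM in treated females. Its groups overlapped through control 152 and animal 354 (log2 fold change of 0.90, adjusted p = 0.00379), and its second probe was called with 1.07.

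Another 4 genes were called. *Chpt1*, which makes phosphatidylcholine, was at 122 to 249 CPM in controls and 221 to 445 CPM in treated females (log2 fold change of 0.80, adjusted p = 0.0613). *Aldh1a1*, a retinaldehyde dehydrogenase, was at 8.15 to 23.1 CPM and 22.7 to 44.3 CPM (log2 fold change of 1.24, adjusted p = 0.0966). *Etfbkmt*, a methyltransferase of the electron transfer flavoprotein, was at 62.0 to 97.3 CPM in controls and at 118, 104, 238 and 307 CPM in treated females (log2 fold change of 1.26, adjusted p = 0.0465). *Mrps10*, a protein of the mitochondrial ribosome, was at 52.55 to 98.4 CPM and 107 to 132 CPM (log2 fold change of 0.74, adjusted p = 0.0318). Each of these 4 calls was lost when animal 353 was left out (adjusted p of 0.196 to 0.644), and each was also lost without control 151 (0.119 to 0.219) and without at least 1 of the other animals.

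**Figure D2:**
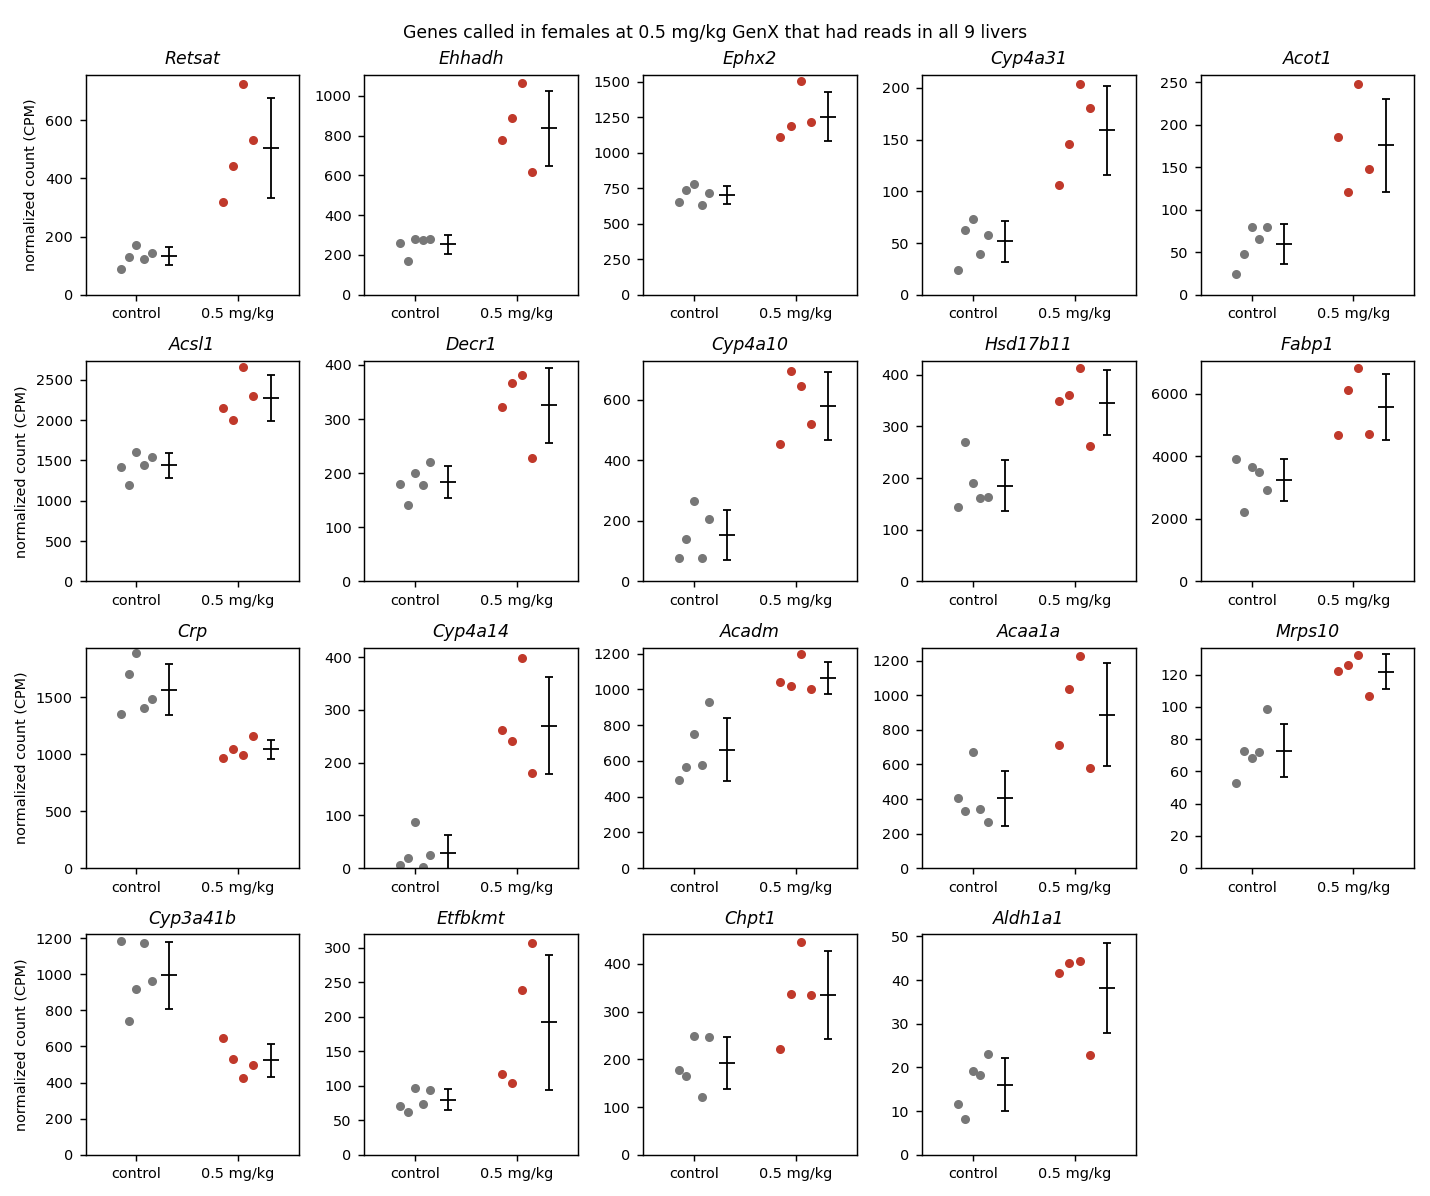
Normalized counts in CPM of the 19 described genes with reads in each of the 9 livers, with control females in grey, females at 0.5 mg/kg in red, 1 point per animal in the order of the animal numbers, and the mean with its SD as a bar beside each group (the lower end for Cyp4a14 in controls falls below 0). In 17 genes the treated females are higher and in 2, Crp and Cyp3a41b, lower, and animal 353 is the highest of the 4 in most of the genes that rose.

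Animal 353 was the highest of the 4 treated females in 20 of the 22 genes that rose. These genes were called with this animal in the fit, so its rank and level in them are a description. Over the 17 described genes that rose and had reads in every library, its median level was 2.75 times the control mean. It was 1.76, 1.99 and 1.72 times in animals 351, 352 and 354, and 0.777 to 1.19 times in the controls. Without animal 353, 23 genes were called, 18 of them among the 25, and 7 calls were lost. Its depth was not unusual, with 11788103 reads and 355215 molecules.

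A list of 16 widely used PPARα target genes, chosen like the other lists with earlier results of these data known, held 6 called genes, *Ehhadh*, *Acot1*, *Cyp4a10*, *Fabp1*, *Cyp4a14* and *Acadm*, all of them higher, and had a median log2 fold change of 0.67. The other 10 did not pass the test. *Plin2*, which coats lipid droplets, was at 664 CPM in controls and 840 CPM in treated females (adjusted p = 0.543), and *Pex11a*, which promotes the division of peroxisomes, at 28.7 and 42.2 CPM (adjusted p = 0.709). *Ppara* itself was at 116 and 96.5 CPM (adjusted p = 1.0), and *Angptl4* at 123 and 61.6 CPM (adjusted p = 0.485). *Vnn1*, *Pdk4* and *Fgf21* averaged below 5 CPM in both groups. Without animal 353 the list of 16 held 5 called genes, with a median of 0.46. With animal 355 in the fit it held 1, with a median of 0.41.

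The lists of cholesterol synthesis and lipogenesis, which do not hold *Chpt1*, had no called gene. Of the 26 genes of cholesterol synthesis and its regulation by SREBP2, 23 had a log2 fold change above 0, with a median of 0.52, and 9 had an unadjusted p below 0.05, against 1220 of all genes tested (9.83%). The median of these cholesterol genes was 0.41 without animal 353 and 0.21 with animal 355 in the fit. It was 0.10 in females at 5 mg/kg, with 3 called higher, and 0.10 in males at 0.5 mg/kg, with 0 called. *Hmgcs1*, the synthase at the start of that pathway, was at 65.6, 66.5, 91.9, 154 and 157 CPM in controls and at 159, 243, 225 and 201 CPM in treated females (log2 fold change of 0.95, adjusted p = 0.371). *Lss* had a log2 fold change of 0.92 (adjusted p = 0.392) and *Fdft1* of 0.67 (adjusted p = 0.485). In the list of lipogenesis genes (0 of 25 called, median of 0.26, or 0.13 without animal 353), *Elovl5* had a log2 fold change of 0.87 (adjusted p = 0.125), *Me1* of 1.142 (adjusted p = 0.229) and *Fasn* of 1.20 (adjusted p = 0.259), with overlapping groups for each of these 3. Lipid droplet proteins and lipases (0 of 23, median of 0.34, or 0.19 without animal 353) and ketogenesis with the pyruvate dehydrogenase kinases (0 of 10, median of 0.27) were likewise not called.

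Of proteins that the liver secretes, *Crp*, an acute-phase protein on chromosome 1 (172698055 to 172833031), fell. It was at 1352, 1700, 1887, 1409 and 1482 CPM in controls and at 968, 1042, 997 and 1158 CPM in treated females, with no overlap (log2 fold change -0.59 ± 0.12 SE, adjusted p = 0.00505). It was the 1 called of 19 acute-phase genes, whose median was -0.45, and 0.67 with animal 355 in the fit. None of 28 coagulation genes was called, the median was -0.33, and 9 had an unadjusted p below 0.05, all lower, beside the 9.83% of all genes in either direction. *Plg*, plasminogen, was at 1888 to 2137 CPM in controls and 1460 to 1685 CPM in treated females (adjusted p = 0.278), and *Kng1*, kininogen, at 3190 to 3692 CPM and 2279 to 2712 CPM (adjusted p = 0.345). Neither gene overlapped between the groups. Complement (0 of 27, median of -0.05) and the enzymes of amino acid use, the urea cycle and gluconeogenesis (0 of 31, median of -0.20, with 4 above 0) held no called gene. *Asl* of the urea cycle was at 716 to 1210 CPM and 619 to 636 CPM (adjusted p = 0.485).

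**Figure D3:**
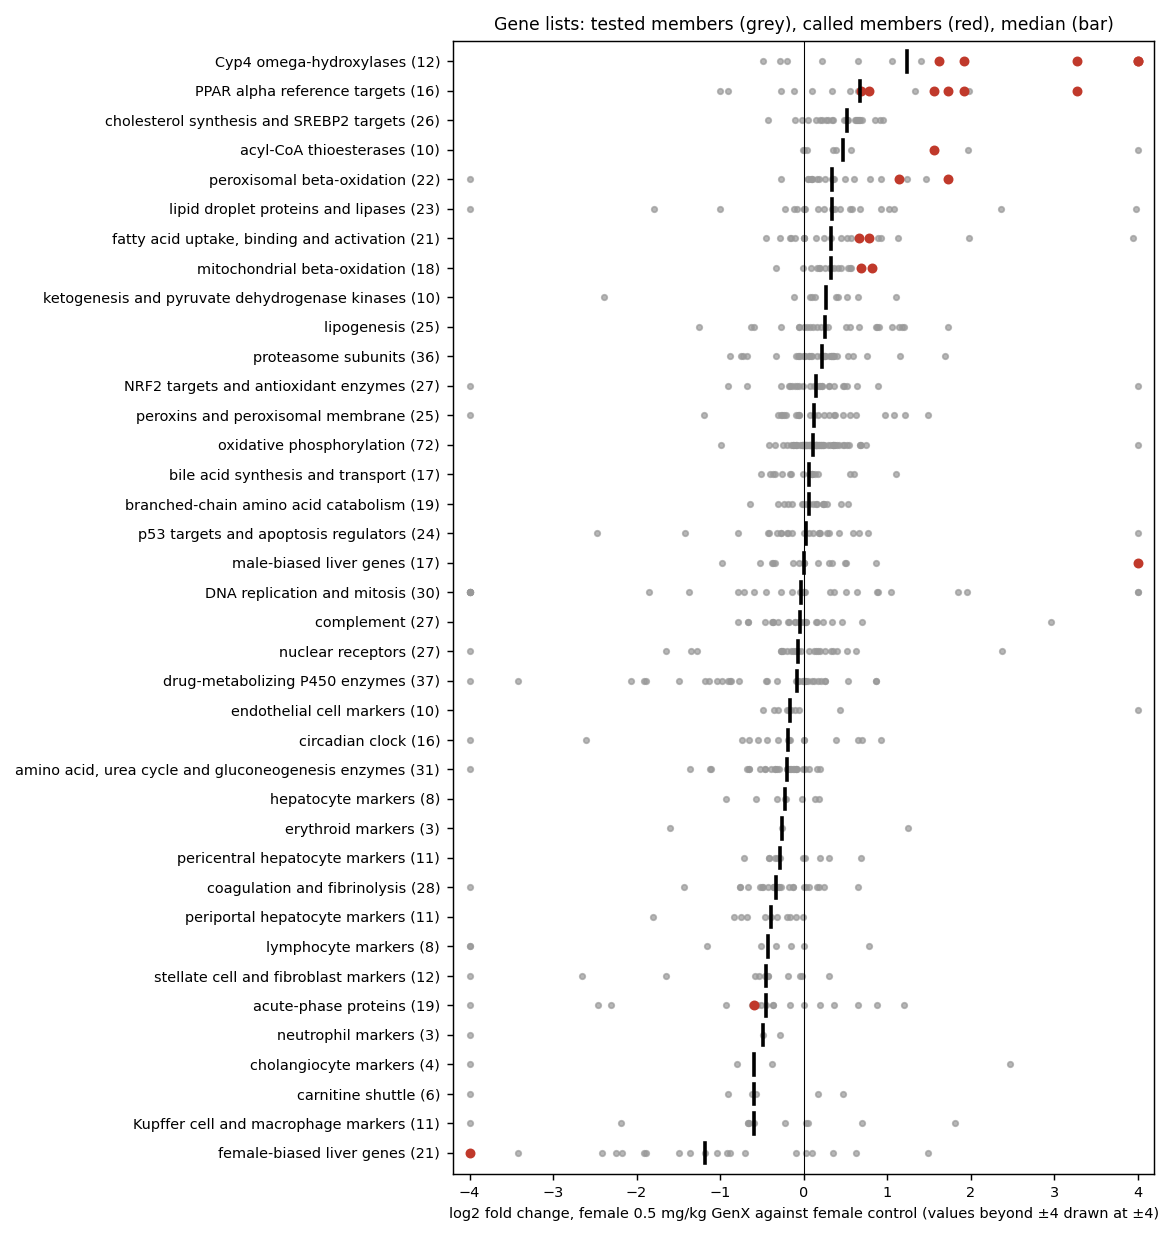
Log2 fold changes of the tested members of each gene list in females at 0.5 mg/kg against control females, with members that passed the test in red, the others in grey, the median as a black bar, the number tested in parentheses and values beyond 4 in size drawn at the edge. Lists with at least 3 tested members are drawn, and of these the Cyp4 list has the highest median, 1.24, with 5 of 12 members called, and the female-biased genes the lowest, -1.18, with 1 of 21 called.

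No gene was called in the lists of drug-metabolizing P450 enzymes (37 tested, median of -0.08, a list that holds *Cyp3a41a* but not the called *Cyp3a41b*), bile acid synthesis and transport (17, median of 0.06), branched-chain amino acid catabolism (19, 0.06), oxidative phosphorylation (72, 0.11), proteasome subunits (36, 0.22), NRF2 targets (27, 0.14), DNA replication and mitosis (30, -0.03), p53 targets and apoptosis regulators (24, 0.03), nuclear receptors (27, -0.07) or the circadian clock (16, -0.18). Of the 30 genes of DNA replication and mitosis, 4 were counted in enough molecules to be tested on that scale, so a change in the others was hardly detectable at this depth. Marker lists of other cell types held no called gene either. The summed level of the 12 markers of Kupffer cells and macrophages was 198 to 408 CPM in controls and 146 to 324 CPM in treated females, with *Timd4* at 0 in all 9. That of the 10 endothelial markers was 378 to 476 CPM and 254 to 448 CPM, that of the 12 stellate cell markers 144 to 254 CPM and 114 to 167 CPM, and that of the 7 cholangiocyte markers 23.2 to 78.0 CPM and 31.9 to 54.5 CPM. Lymphocyte markers summed to 17.2 to 58.3 CPM and 15.3 to 36.1 CPM, neutrophil markers to 18.04 to 56.9 CPM and 9.96 to 43.2 CPM, erythroid markers to 25.5 to 91.6 CPM and 25.9 to 82.9 CPM, and adipocyte markers to 2.66 to 22.6 CPM and 0 to 7.60 CPM. The defining markers *Ms4a1* and *Trbc2* of lymphocytes, *S100a8* and *S100a9* of neutrophils and *Adipoq* of adipocytes had no reads. Hepatocytes of the portal side (11 markers, median log2 fold change of -0.39, none above 0) summed to 11350 to 15040 CPM and 11300 to 13130 CPM, and those of the central side (11 markers, -0.28) to 7031 to 11330 CPM and 7263 to 10820 CPM. The part of these differences in the results was not tested.

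Males given the same dose had 324 called genes (2.61%), and the difference between the sexes, tested as an interaction of treatment and sex, was called for 40 genes (0.322%), 8 of them among the 25. *Ehhadh* rose from 205 to 1926 CPM on average in males, a log2 fold change of 3.23, so that the female change was smaller by 1.51 (standard error 0.24, adjusted p = 0.000367). *Cyp4a10* rose from 36.9 to 1125 CPM in males, a log2 fold change of 4.93, and the female change was smaller by 3.01 (standard error 0.51, adjusted p = 0.00158). Control females averaged 153 CPM. For *Cyp4a12a*, males were at 210 CPM without and 281 CPM with GenX, and this gene, *Cyp4a12b* and *Nat8f5* differed between the sexes (adjusted p of 3.31e-10, 0.00284 and 0.0108), with none of the 3 called in males. These 3 were called in females against controls with no or almost no reads. A large difference on the log2 scale follows from that and is not a separate result. In CPM, *Cyp4a12b* averaged 34.9 and 93.8 in males, against 0 and 8.55 in females. *Sult1e1* had no reads in control males and 28 reads in 1 of 5 treated males, and *Cyp3a41b* was at 344 CPM in control males and 497 CPM in treated males (adjusted p of 0.00369 and 0.0108 for the difference). Since control males had no *Sult1e1* reads, no fall could be measured in them, and the value for this gene does not compare 2 responses. *Mrps10* was at 107 and 93.6 CPM in males (adjusted p = 0.0812 for the difference). *Retsat* had log2 fold changes of 1.93 in females and 2.18 in males, and the difference was -0.25 (standard error 0.25, adjusted p = 0.975).

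**Figure D4:**
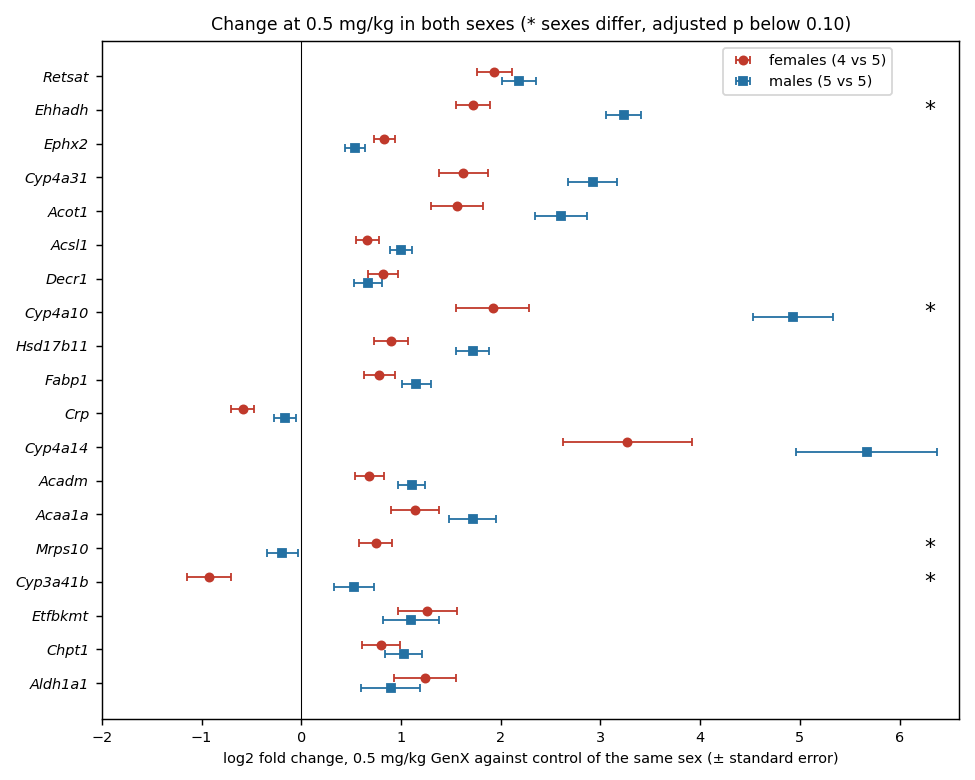
Log2 fold changes at 0.5 mg/kg against controls of the same sex, with the standard error as a bar, for 19 genes called in females, with females in red circles (4 against 5 animals) and males in blue squares (5 against 5), and an asterisk where the sexes differed. Ehhadh (1.72 and 3.23) and Cyp4a10 (1.92 and 4.93) are lower in females. Cyp3a41b and Mrps10 have opposite signs in the sexes, but neither was called in males (edgeR adjusted p of 0.229 and 0.784).

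Among females, no gene was called at 0.1 mg/kg with edgeR (0%), while 1191 had an unadjusted p below 0.05, 110 were called by DESeq2 and 9 by limma's voom. At 5 mg/kg 508 genes were called (4.09%). The 3 doses share their controls, so values are given side by side. *Ehhadh* averaged 253, 263, 836 and 7868 CPM at 0, 0.1, 0.5 and 5 mg/kg, *Cyp4a14* 27.96, 44.6, 270 and 961 CPM, *Retsat* 132, 151, 505 and 1488 CPM, and *Fabp1* 3243, 3253, 5585 and 11410 CPM. *Crp* averaged 1566, 1521, 1041 and 847 CPM. *Sult1e1* was at 2.33 to 40.5 CPM at 0.1 mg/kg and had no reads in the 4 animals kept at 0.5 mg/kg or in any at 5 mg/kg. *Mrps10* and *Aldh1a1* had log2 fold changes of 0.58 and 1.02 at 5 mg/kg, against 0.74 and 1.24 at 0.5 mg/kg.

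Estimated counts in captured molecules, the reads of a probe divided by the reads per molecule of its library, left 4290 genes to test. Of these, 77 were called (1.79%), 49 higher and 28 lower, with 24 of the 25 genes, all but *Tdrp*, among them. They included *Cd36* (log2 fold change of 1.87, adjusted p = 0.00511), *Hadhb* (0.55, adjusted p = 0.0206) and *Decr2* (0.91, adjusted p = 0.029), and, lower, *Cyp3a41a* (-1.49, adjusted p = 0.0441), *Cyp2c69* (-1.94, adjusted p = 0.0547) and *Plg* (-0.36, adjusted p = 0.0564).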

How the data were processed

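Livers of 40 mice were measured by TempO-Seq. The authors deposited 1 table of raw read counts per probe for all 40 samples (30146 probes, 21448 gene symbols). Per the submitters' processing notes reads were demultiplexed with bcl2fastq 2.17.1.14 and aligned with Bowtie, with mm10 named as the genome build, and the counts are not normalized. Probes, not whole transcripts, were counted, so a value rests on how well 1 short site was bound. Amplified copies of a molecule were not collapsed. Bounds on folds set a floor of 3 molecules for the group that had none and take the count of the other group as exact. They cover neither the counting error of that other group nor the variation between animals. The number of reads per molecule was estimated here from the most frequent value among the low counts of each library. Counts in molecules were rounded to whole numbers. Whether counts lie near multiples of the estimate was not tested.

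Groups were taken from the labels. Animal 355 was left out for a total more than 2 SD below the mean of the 40 totals. The 39 other samples, in 8 groups of sex and dose, were fitted together with edgeR 4.0.16 (R 4.3.3), with its default filter on low counts, TMM normalization and the quasi-likelihood F-test, and p-values were adjusted over all probes tested. A gene was represented by its most counted probe and called at an adjusted p below 0.10. The labels name separate animals as replicates. DESeq2 1.42.0, limma 3.58.1 (voom), other normalizations, filters and sample sets, and counts in molecules were tried as alternatives. Scripts were tested on simulated data.

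Named genes were those called, the 3 tested members of each gene list with the smallest p, and all PPARα reference targets. The members and lists were chosen with earlier results of these data known. Of the 25 called genes, 1 is not reported here, nor are some members of the lists.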

Additional observations from a re-analysis of the deposited data

Results flagged for a closer look

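In 5 of 48 gene and group combinations, 1 animal lay far from the others of its group by Dixon's criterion, which chance meets in about 1 in 20. In treated females these were animal 353 for *Cyp4a12a* (83.5 CPM) and *Nat8f5* (26.6 CPM), both highest, and animal 354 for *Aldh1a1* (22.7 CPM), lowest. In controls they were animal 152 for *Ehhadh* (172 CPM), lowest, and animal 153 for *Cyp4a14* (86.8 CPM), highest.

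The interaction term of sex and treatment in the edgeR fit was called for 8 of the called genes at the same dose. The female minus male difference in log2 fold change was 9.05 for *Cyp4a12a*, 8.39 for *Cyp4a12b*, 9.30 for *Nat8f5* and 0.93 for *Mrps10*. It was -1.51 for *Ehhadh*, -3.01 for *Cyp4a10*, -1.46 for *Cyp3a41b* and -19.42 for *Sult1e1*. The values for *Cyp4a12a*, *Cyp4a12b*, *Nat8f5* and *Sult1e1* are fitted against groups with no or almost no reads and are not sizes of effect, and for *Sult1e1*, with no reads in control males, no fall could be measured in males.

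For 3 genes that were not called on their most counted probe, another probe was called. Both other probes of *Ephx1*, the microsomal epoxide hydrolase, were higher in treated females, with log2 fold changes of 0.95 (adjusted p = 0.00868) and 1.14 (adjusted p = 0.0134), beside 0.89 on the most counted probe. *Scp2*, a peroxisomal thiolase and sterol carrier, gave 1.11 (adjusted p = 0.0121) and 0.58 (adjusted p = 0.0414), beside 0.35. *H2-K1*, a class I histocompatibility gene, gave -1.51 (adjusted p = 0.0964), beside -0.38, with controls at 142.5 to 1302 CPM and treated females at 124 to 229 CPM.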

How the results depend on the processing

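Of the 25 genes called (22 higher, 3 lower), the number under other settings was 199 with DESeq2 (106 higher, 93 lower), 80 without the filter on low counts (47 and 33), 77 in molecules (49 and 28), 51 with limma's voom (25 higher, 26 lower), 15 with the 2 groups alone (10 and 5) and 8 with animal 355 included (7 and 1). DESeq2 shared all 25, the filter-free fit 23, molecules 24, voom 14, the 2 groups alone 12 and the fit with animal 355 6. Summing the probes of a gene gave 5 lower genes. Leaving out 1 animal gave 23 to 38 calls, 17 to 31 higher and 3 to 9 lower, and lost between 0 and 7 calls, most without animal 353. The 40 genes that differed between the sexes became 280 with DESeq2, 124 without the filter, 88 in molecules, 61 with summed probes and 8 with animal 355, and 20 to 53 with 1 animal left out. The 508 genes at 5 mg/kg became 180 with animal 355 and 418 to 492 with 1 animal left out. None of the 24 called genes described here reversed its direction, but the median of 13 of the 38 gene lists with at least 3 tested members changed sign with animal 355 included. The causes of these differences were not tested. No paired analysis was possible because the groups share no animal numbers. Depth limits the genes with few molecules, above all *Cyp4a12b*, *Nat8f5* and *Tdrp*.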
